A study of Mus musculus with 3 samples.

Results

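Nascent RNA of 36 genes of cholesterol and fatty acid synthesis was measured in mouse pancreatic cancer cells with an inducible short hairpin RNA (shRNA) against PDX1. The genes were taken from a list of 37 named genes of these pathways, most of them known targets of the sterol regulatory element binding proteins (SREBPs). They were matched by symbol among 22658 gene models, and the other listed gene, Hmgcs1, was not analysed here. The sterol branch held 24 of these genes and the fatty acid branch 12. A gene was called measured where its mean level over the libraries was at least 0.5 RPKM (reads per kilobase of gene model, scaled to the reads of the library) and its model was at least 300 bp long. This left 20 sterol and 10 fatty acid genes among 7915 measured models, and Mvk, Mvd, Tm7sf2, Dhcr7, Acss2 and Lpin1 lay under the minimum.

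The data came from Bru-seq, in which cells take up bromouridine and the RNA made during that window is captured and sequenced. Labelling was with 2 mM bromouridine for 30 min, in NB490 cells kept in medium with 10% fetal bovine serum. All of them carried the shRNA, under puromycin selection, and doxycycline, which switches it on, was either absent, present for 48 h, or present over a grow-out of more than 3 weeks. These conditions are called uninduced, 48 h and grown-out, and each was 1 library, so there was no replicate and no test between conditions. The intervals below are 95% intervals for counting error only, and they do not cover variation between cultures. Doxycycline in cells that lack the shRNA was not analysed here, so an effect of the drug and an effect of the shRNA cannot be told apart. In such bulk RNA, fewer cells of a kind and less RNA per cell cannot be told apart either.

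SREBPs are transcription factors made as membrane proteins of the endoplasmic reticulum. When sterols are scarce, the escort protein SCAP carries them to the Golgi, where they are cut and freed to enter the nucleus, and when sterols are plentiful, INSIG proteins hold SCAP back. SREBP2, from Srebf2, acts mainly on cholesterol synthesis genes, and SREBP1, from Srebf1, mainly on fatty acid genes. Both bind sterol regulatory elements (SREs), usually beside sites for NF-Y, which binds the CCAAT box, and Sp1, which binds the GC box.

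The promoters of 29 of the 36 genes were found in the RefSeq table of mouse build GRCm38.p6, and the 250 bases before each transcript start were searched on both strands. Sc4mol was matched to the entry Msmo1, of which it is a synonym. A gene with several listed starts was counted where any of them had the match. The CCAAT box, searched as CCAAT, was found in 18 of 20 sterol genes and in 4 of 9 fatty acid genes, against 37.5% of 27025 genes with a listed promoter. The GC box, searched as GGGCGG, was found in 18 of 20 sterol and 5 of 9 fatty acid genes, against 35.4% of all genes. The E-box CACGTG was found in 5 of 20 sterol and 0 of 9 fatty acid genes, against 6.86%. The SRE searched as TCACNCCAC had no match in these windows, against 1.22% of all genes, which says only that these letters are not there. The shorter TCACNCCA, which lies within it, matched Sc4mol and Srebf2, and CACCCCAC matched Acat2, against 4.20% and 2.98% of all genes. A match is a run of letters and was not tested as a binding site. The shares of all genes cover every gene with a listed promoter, measured here or not, and were not matched for expression. At 48 h the median log2 ratio against uninduced cells was -0.40 for 22 genes with a CCAAT match and -0.33 for 7 without. In grown-out cells these medians were -0.30 and -0.37, and the part of the CCAAT box in them was not tested. Shown here, 5′ to 3′ on the strand of the gene, are promoters of 6 sterol genes that were lower past 1.5-fold at 48 h. Of these, Acat2 has no CCAAT match. That of Acly, a fatty acid gene that was not lower past 1.5-fold and has no CCAAT match, is also shown. Ggps1, a sterol gene that was not lower at 48 h, has 3 CCAAT matches and is not shown. Capitals mark CCAAT, its reverse complement ATTGG, TCACNCCA and CACCCCAC.
Insig1 (chr5:28071162-28071411, plus strand): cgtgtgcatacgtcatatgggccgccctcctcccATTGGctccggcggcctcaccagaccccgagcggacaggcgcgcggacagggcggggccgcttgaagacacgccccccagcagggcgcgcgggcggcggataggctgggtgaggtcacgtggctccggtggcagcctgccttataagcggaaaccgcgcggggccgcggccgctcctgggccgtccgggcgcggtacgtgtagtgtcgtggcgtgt
Idi1 (chr13:8885356-8885605, plus strand): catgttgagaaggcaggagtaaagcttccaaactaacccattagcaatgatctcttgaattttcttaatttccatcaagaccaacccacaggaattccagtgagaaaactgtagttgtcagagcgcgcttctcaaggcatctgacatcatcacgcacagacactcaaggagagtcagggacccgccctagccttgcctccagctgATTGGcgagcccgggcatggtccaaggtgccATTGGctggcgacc
Lss (chr10:76531355-76531604, plus strand): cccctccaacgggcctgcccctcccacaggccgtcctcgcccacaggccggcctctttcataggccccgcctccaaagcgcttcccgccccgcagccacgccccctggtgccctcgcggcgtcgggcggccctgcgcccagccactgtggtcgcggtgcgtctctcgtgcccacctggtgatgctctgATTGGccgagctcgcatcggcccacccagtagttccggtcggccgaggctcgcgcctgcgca
Cyp51 (chr5:4104698-4104947, minus strand): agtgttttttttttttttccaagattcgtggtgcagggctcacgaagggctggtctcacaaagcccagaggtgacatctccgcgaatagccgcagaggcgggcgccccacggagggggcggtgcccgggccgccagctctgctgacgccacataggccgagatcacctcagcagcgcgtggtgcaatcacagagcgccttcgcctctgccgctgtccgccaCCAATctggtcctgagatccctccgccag
Sc4mol (chr8:64733579-64733828, minus strand): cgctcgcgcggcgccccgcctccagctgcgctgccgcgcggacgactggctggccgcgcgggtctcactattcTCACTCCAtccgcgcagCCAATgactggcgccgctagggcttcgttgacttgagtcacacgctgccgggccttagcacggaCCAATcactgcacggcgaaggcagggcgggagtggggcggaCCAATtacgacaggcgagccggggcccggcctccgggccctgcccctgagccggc
Acat2 (chr17:12960726-12960975, minus strand): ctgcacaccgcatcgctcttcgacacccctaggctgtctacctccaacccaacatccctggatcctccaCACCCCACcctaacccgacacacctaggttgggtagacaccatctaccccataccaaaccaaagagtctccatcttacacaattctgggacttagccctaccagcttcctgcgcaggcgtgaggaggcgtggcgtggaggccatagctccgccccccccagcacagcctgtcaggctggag
Acly (chr11:100528001-100528250, minus strand): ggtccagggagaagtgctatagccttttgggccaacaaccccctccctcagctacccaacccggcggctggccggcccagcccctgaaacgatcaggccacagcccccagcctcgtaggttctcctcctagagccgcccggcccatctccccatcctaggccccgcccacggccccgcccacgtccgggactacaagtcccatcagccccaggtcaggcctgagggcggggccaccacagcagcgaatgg
In Sc4mol the TCACNCCA match began 177 bases before the start and the CCAAT matches 160, 96 and 55 bases before it. In Idi1 the CCAAT matches, both on the opposite strand, began 45 and 14 bases before the start, and in Insig1 216 bases before it.

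**Figure D1:**
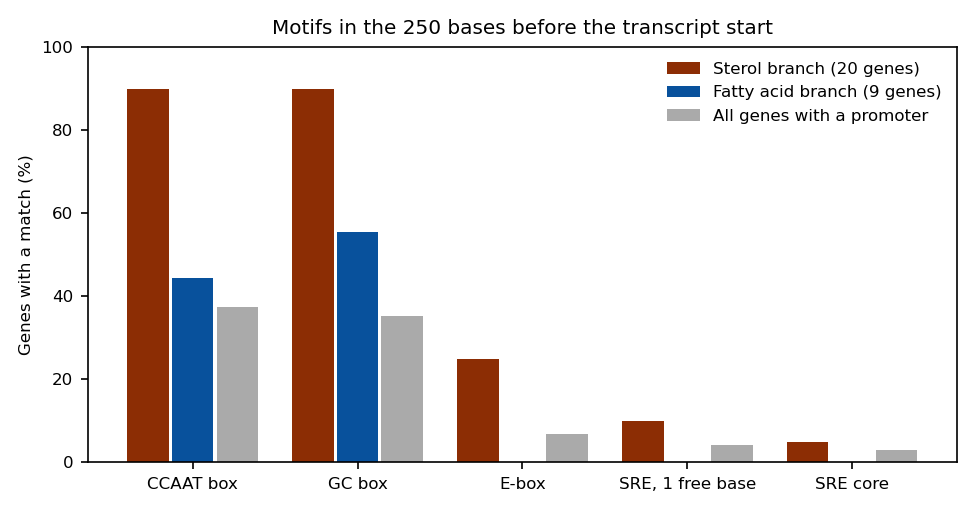
Share of genes (y axis, percent) with at least 1 match of each motif (x axis) in the 250 bases before a listed transcript start, for 20 sterol genes, 9 fatty acid genes and all 27025 genes. CCAAT and GC box matches were each present in 18 of 20 sterol genes, whereas both SRE forms shown were rare in every group.

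The libraries held 51006774 reads in uninduced cells, 48418864 at 48 h and 41632296 in grown-out cells, and gene models held 78.1% to 79.4% of them. Pdx1, the target of the shRNA, had 1.59 RPKM in uninduced cells, 1.05 RPKM at 48 h and 1.41 RPKM in grown-out cells. An shRNA acts on finished RNA, so these levels do not measure the knockdown. Krt8, Krt18, Krt19, Epcam and Cdh1, markers of a pancreatic cancer epithelium, summed to 43.6, 37.4 and 40.3 RPKM across the libraries in the order uninduced, 48 h, grown-out, with 4 of 5 measured. Of these Krt19 was 1.70-fold lower at 48 h (1.53 to 1.89) and Krt18 1.06-fold higher (1.01 to 1.12), and Epcam, under the minimum, had 17 reads in grown-out cells and 76 in uninduced cells, 3.65-fold lower (2.14 to 6.59). Of 4 adipocyte and 4 hepatocyte markers, cells known for lipid synthesis, 0 were measured, with at most 2 and 6 summed reads in any library. Acinar, endocrine, fibroblast and endothelial markers had 0 measured genes. Of 5 immune markers Cd68 and Cd14 were measured, and the list summed to 2.41, 1.37 and 1.37 RPKM in the libraries, with Lyz2 at 0 reads in each. The lower immune sum of both doxycycline libraries was mostly Cd14, at 1.42, 0.451 and 0.469 RPKM. Cd68 stood at 0.994, 0.916 and 0.901 RPKM, with fold intervals against uninduced cells that included no change (0.665 to 1.27 at 48 h, 0.638 to 1.26 in grown-out cells). The part of these markers in the values below was not tested.

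Set against the uninduced library, the 48 h library addresses the early response to induction. Sterol genes were lower nearly throughout: of 20 measured, 11 were lower past 1.5-fold and 0 higher, against 3.27% lower and 0.379% higher among all 7915 measured genes. Past 1.5-fold means a log2 ratio of that size, of RPKM plus 0.05, with an interval that excluded no change. Beyond counting error alone, at any size, 16 of 20 were lower and 0 higher, where 30% of all measured genes were lower and 30.1% higher. The median log2 ratio of the 20 genes was -0.62, against 0.00 for all measured genes. Over all 24 sterol genes, those under the minimum included, it was -0.55. The members were chosen with earlier results of these data known, so these counts describe the libraries and are not independent evidence.

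Among the SREBP regulators, only Insig1 was lower past 2-fold, as were 0.72% of all measured genes. Insig1 (chromosome 5, 28397952 to 28405202, plus strand, as in the deposited files, whose build is not given in the sources used here) encodes the sterol-dependent anchor of SCAP and is itself an SREBP target. It had 9.86 RPKM in uninduced cells, 4.30 RPKM at 48 h and 5.13 RPKM in grown-out cells, so both doxycycline libraries lay below the uninduced one. It was 2.30-fold lower at 48 h (2.16 to 2.44), and its log2 ratio of -1.19 was lower than those of all but 0.417% of measured genes. Its relative Insig2 had 0.977 RPKM in uninduced cells, 0.931 RPKM at 48 h and 1.13 RPKM in grown-out cells, and its 48 h fold of 0.953 had an interval that included no change (0.883 to 1.03). The intervals of the 2 INSIG genes did not overlap. In triplets of levels from here on the libraries run uninduced, 48 h, grown-out. Scap, which encodes the escort, stood at 0.708, 0.695 and 0.880 RPKM, and its 48 h interval also included no change. Srebf2, the gene of the cholesterol-directed factor (chromosome 15, 81977699 to 82035390, plus strand), had 3.65, 2.81 and 3.33 RPKM. It was 1.30-fold lower at 48 h (1.26 to 1.34), short of the 1.5-fold threshold.

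Genes of the mevalonate and isoprenoid steps differed among themselves. Idi1, an isomerase of isoprenoid units (chromosome 13, 8884852 to 8891642, plus strand), had 6.06 RPKM in uninduced cells, 3.25 RPKM at 48 h and 3.89 RPKM in grown-out cells, and was 1.86-fold lower at 48 h (1.73 to 2.01). Acat2, a thiolase that joins acetyl-CoA units, had 1.11, 0.667 and 0.789 RPKM and was 1.67-fold lower at 48 h (1.5 to 1.85). Pmvk, a mevalonate pathway kinase, had 1.03, 0.645 and 0.765 RPKM and was 1.59-fold lower (1.38 to 1.84). Fdps, which makes farnesyl diphosphate, lay just under the threshold at 1.47-fold lower (1.34 to 1.61), with 2.70, 1.84 and 2.08 RPKM. Ggps1 makes geranylgeranyl diphosphate for protein prenylation and so stands on a side branch of the route to sterols. It had 2.48, 2.60 and 2.05 RPKM, and was the one sterol-branch gene with a positive 48 h log2 ratio, 0.07, with a fold interval that included no change (0.971 to 1.13). Mvk and Mvd, a kinase and a decarboxylase of the pathway, were under the minimum at up to 0.279 and 0.255 RPKM, and were 1.37-fold (1.10 to 1.71) and 1.45-fold (1.09 to 1.93) lower at 48 h.

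The steps from squalene to cholesterol held most of the genes lower past 1.5-fold, 7 of 10 measured, with a median log2 ratio of -0.64. Among all measured genes 3.27% were lower past 1.5-fold at 48 h, and the median was 0.00. Lss, which closes the sterol ring as lanosterol synthase, had 0.734 RPKM in uninduced cells, 0.387 RPKM at 48 h and 0.529 RPKM in grown-out cells. It was 1.89-fold lower at 48 h (1.68 to 2.13). Cyp51, the lanosterol demethylase, had 4.72, 2.67 and 2.99 RPKM and was 1.77-fold lower (1.69 to 1.85). Both stood at their lowest at 48 h. Sqle, squalene epoxidase, had 3.18, 1.85 and 2.56 RPKM and was 1.72-fold lower at 48 h (1.61 to 1.84). Fdft1, squalene synthase, had 2.25, 1.36 and 1.58 RPKM and was 1.65-fold lower (1.57 to 1.74). Sc4mol, a sterol methyl oxidase and among the most transcribed of these genes, had 8.17, 5.19 and 6.40 RPKM and was 1.57-fold lower (1.51 to 1.64). Hsd17b7, a ketosteroid reductase, and Nsdhl, a sterol dehydrogenase, were 1.58-fold (1.46 to 1.70) and 1.55-fold (1.30 to 1.85) lower. The value of Nsdhl rests on 2218 bp of its 40008 bp span. Fdft1, Sqle, Lss and Cyp51, whose enzymes act one after another from farnesyl diphosphate onward, were thus all lower past the threshold at 48 h.

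The other sterol genes after squalene, and the carrier Stard4, were not lower past 1.5-fold at 48 h. Sc5d, a sterol desaturase, had 4.16, 3.30 and 2.89 RPKM and was 1.26-fold lower at 48 h (1.18 to 1.35). Lbr is both a sterol reductase and the lamin B receptor of the nuclear envelope. It had 3.97, 3.62 and 4.18 RPKM, 1.10-fold lower at 48 h (1.05 to 1.14). Ebp, a sterol isomerase, had 2.54, 2.42 and 2.58 RPKM, with an interval at 48 h that included no change. Dhcr7, which carries out a last reduction to cholesterol, and Tm7sf2, a reductase that shares its step with Lbr, were under the minimum and were 1.27-fold (1.11 to 1.44) and 1.54-fold (1.13 to 2.13) lower. The interval of Tm7sf2 rests on 67 reads at 48 h and 109 in uninduced cells, and its log2 ratio of -0.55 missed the threshold. Stard4, a carrier that moves sterols between membranes, had 3.45, 2.50 and 2.50 RPKM and was 1.38-fold lower at 48 h (1.29 to 1.48).

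**Figure D2:**
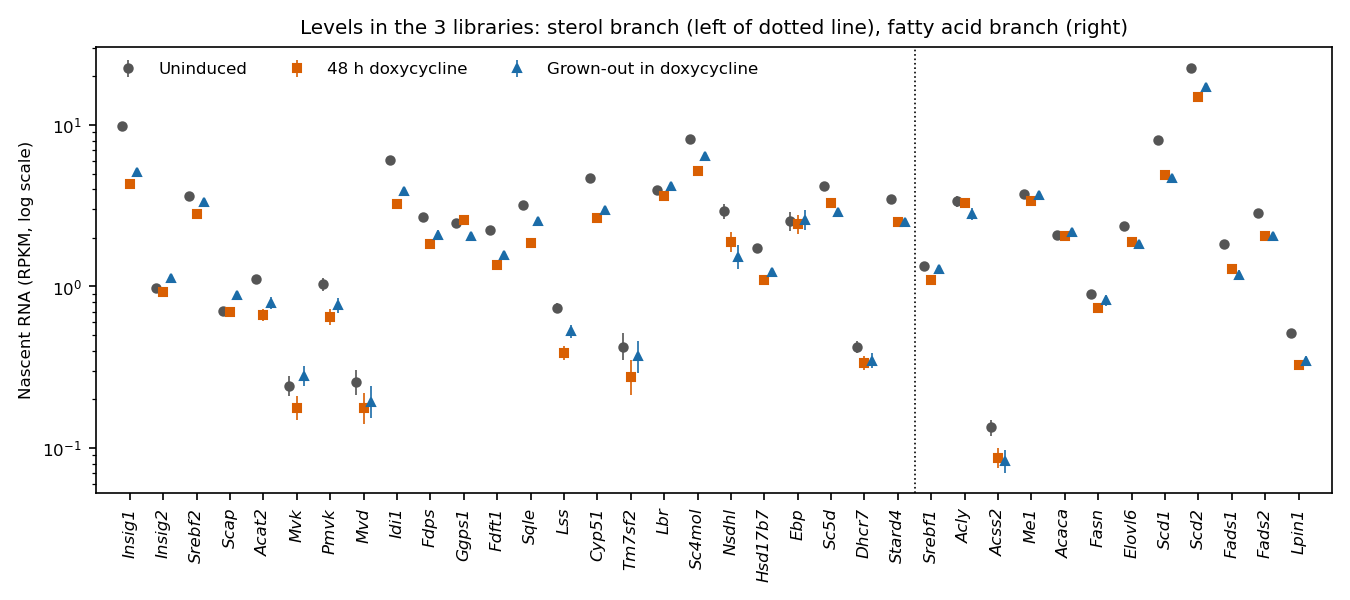
Nascent RNA level (y axis, RPKM on a log scale) of the 36 genes (x axis, in pathway order) for each library (uninduced, 48 h, grown-out); bars are exact Poisson 95% intervals. Most sterol genes have their lowest point at 48 h, whereas Ggps1, Sc5d and Nsdhl have it in grown-out cells; levels of Nsdhl, Ebp, Scd1 and Acly are scaled by a deposited length far below their span.

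Fatty acid genes were also lower at 48 h, mostly by less than 1.5-fold. Of 10 measured, 1, Scd1, was lower past 1.5-fold and 0 higher, against 3.27% lower and 0.379% higher among all measured genes. Without Scd1 and Acly, whose deposited lengths fall short of their spans, the count was 0 of 8. Beyond counting error, 8 of 10 were lower and 0 higher, where 30% of all measured genes were lower and 30.1% higher. The median log2 ratio was -0.30. Over all 12 genes, the median was -0.38. The branch split by role. The elongation and desaturation genes had a median of -0.50, and the acetyl-CoA, NADPH and chain-building genes that were measured one of -0.09.

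Scd1 and Scd2, stearoyl-CoA desaturases that make oleate, were the most lowered of the measured fatty acid genes. Scd1 had 8.08 RPKM in uninduced cells, 4.87 RPKM at 48 h and 4.67 RPKM in grown-out cells, and was 1.66-fold lower at 48 h (1.54 to 1.78). Scd2, the most transcribed gene of either branch, had 22.4, 14.9 and 17.2 RPKM. As a plain ratio it was 1.5-fold lower at 48 h (1.46 to 1.54), but its log2 ratio with the pseudocount, -0.584, lay just outside the threshold. The 2 genes are close relatives, so reads that both share could be assigned to either. Fads1 and Fads2, desaturases of polyunsaturated fatty acids, were 1.44-fold (1.32 to 1.57) and 1.39-fold (1.33 to 1.45) lower at 48 h. Elovl6, an elongase of saturated chains, had 2.38, 1.89 and 1.83 RPKM and was 1.26-fold lower (1.23 to 1.30).

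The 4 measured genes that supply and build the chain were at most 1.21-fold lower at 48 h. Acaca makes malonyl-CoA, the committed step. It had 2.07 RPKM in uninduced cells, 2.04 RPKM at 48 h and 2.16 RPKM in grown-out cells, and its 48 h interval included no change (0.967 to 1.00), on 20400 reads at 48 h and 21806 in uninduced cells. Acly, which makes cytosolic acetyl-CoA from citrate, had 3.36, 3.29 and 2.82 RPKM, also with a 48 h interval that included no change. Fasn, fatty acid synthase, had 0.894, 0.737 and 0.823 RPKM and was 1.21-fold lower at 48 h (1.09 to 1.34). Me1, a source of NADPH, was 1.11-fold lower (1.09 to 1.13). Srebf1 had 1.34, 1.10 and 1.28 RPKM and was 1.21-fold lower (1.12 to 1.31), against 1.30-fold for Srebf2. Below the minimum, Lpin1, a phosphatidate phosphatase of glycerolipid synthesis, was 1.58-fold lower (1.45 to 1.72), and Acss2, which makes acetyl-CoA from acetate and so belongs to the supply genes, 1.55-fold lower (1.28 to 1.86).

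**Figure D3:**
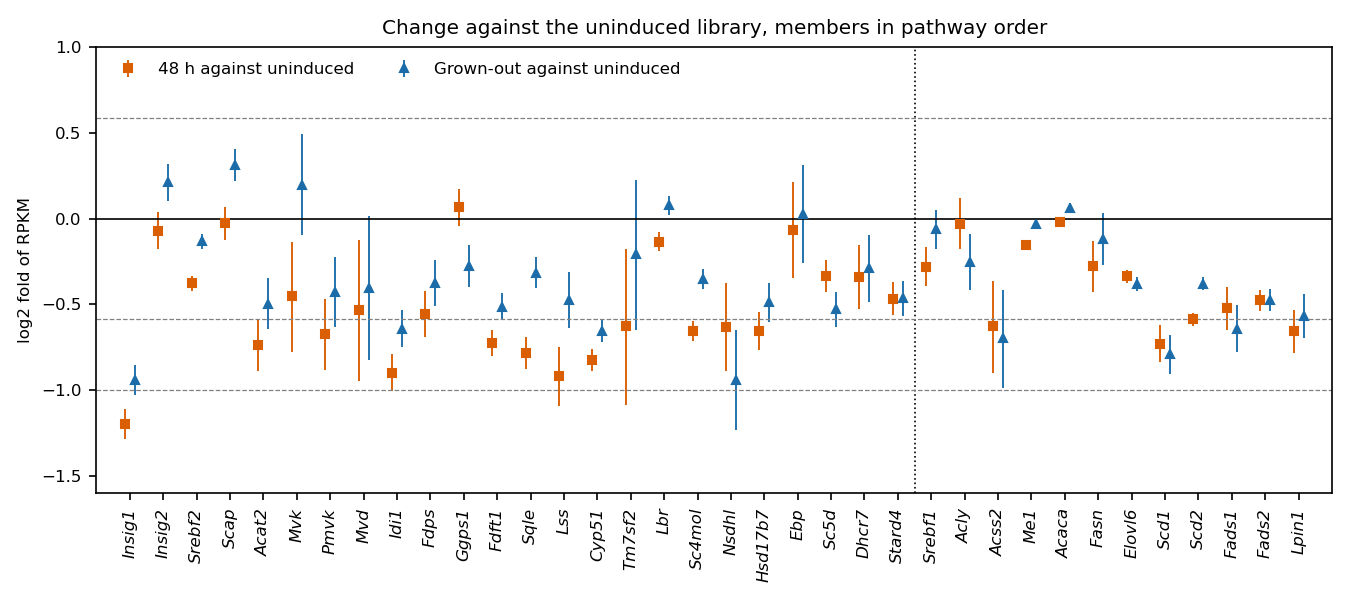
Log2 fold of RPKM (y axis) for the 36 genes (x axis, in pathway order) at 48 h and in grown-out cells, each against the uninduced library; bars are exact conditional binomial 95% intervals of the reads and dashed lines mark 1.5-fold higher and lower and 2-fold lower. Insig1 at 48 h lies past 2-fold lower, and the 48 h points of Insig2, Scap, Ggps1, Ebp, Acaca and Acly have intervals that include no change.

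Grown-out cells address the state after long exposure. They were set against the same uninduced library, so both comparisons share it. Of 20 measured sterol genes, 4 were lower past 1.5-fold and 0 higher, against 2.93% lower and 1.07% higher among all measured genes. Beyond counting error, 16 were lower and 3 higher, where 29.5% of all measured genes were lower and 33.6% higher. Their median log2 ratio was -0.42, against 0.01 for all measured genes, and 0 were past 2-fold, where 0.708% of all measured genes were lower. Over all 24 sterol genes the median was -0.36.

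The 4 genes were Insig1, Nsdhl, Cyp51 and Idi1. Insig1 was 1.92-fold lower (1.81 to 2.04), Cyp51 1.58-fold (1.51 to 1.65) and Idi1 1.56-fold (1.45 to 1.68) lower. Nsdhl had 2.93 RPKM in uninduced cells, 1.89 RPKM at 48 h and 1.53 RPKM in grown-out cells, and was 1.92-fold lower in grown-out cells (1.57 to 2.35). Its value rests on 141 reads in grown-out cells and 331 in uninduced cells, over 2218 bp of its 40008 bp span. Sc5d was 1.44-fold lower (1.34 to 1.55) and Ggps1, which was not lower at 48 h, 1.21-fold lower (1.11 to 1.32). Sqle, at 1.24-fold (1.17 to 1.32), and Sc4mol, at 1.28-fold (1.23 to 1.33), were lower by less than the threshold.

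The genes that were higher in grown-out cells included 2 of the 4 SREBP regulators. Scap was 1.24-fold higher (1.17 to 1.33) and Insig2 1.16-fold higher (1.07 to 1.25), both short of 1.5-fold. Srebf2 was 1.10-fold lower (1.07 to 1.13). Lbr was 1.05-fold higher (1.01 to 1.10). Mvk, under the minimum, had 0.243 RPKM in uninduced cells, 0.178 RPKM at 48 h and 0.279 RPKM in grown-out cells, and its grown-out interval included no change. Ebp, Mvd and Tm7sf2 also had grown-out intervals that included no change.

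Of 10 measured fatty acid genes, 2 were lower past 1.5-fold in grown-out cells and 0 higher, and the median log2 ratio was -0.31, or -0.38 over all 12. Among all measured genes 2.93% were lower and 1.07% higher past 1.5-fold. Beyond counting error 7 were lower and 1, Acaca, was higher, by 1.04-fold (1.02 to 1.06), where 29.5% of all measured genes were lower and 33.6% higher. The 2 genes were both desaturases: Scd1 was 1.73-fold lower (1.60 to 1.87) and Fads1, with 1.84, 1.28 and 1.18 RPKM, 1.56-fold lower (1.42 to 1.71). Fads2 was 1.39-fold lower (1.33 to 1.45), Elovl6 1.30-fold (1.27 to 1.34) and Scd2 1.30-fold (1.27 to 1.33) lower. Acly was 1.19-fold lower (1.06 to 1.34). Srebf1 and Fasn had intervals that included no change, 0.886 to 1.04 and 0.830 to 1.02 as folds. Under the minimum, Acss2 was 1.62-fold lower (1.33 to 1.98) and Lpin1 1.48-fold lower (1.35 to 1.62).

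Grown-out cells were also set against the 48 h library, and both libraries had served above. Sterol genes were higher in grown-out cells by small amounts: 0 of 20 measured were past 1.5-fold in either direction, against 3.59% higher and 2.25% lower among all measured genes. Beyond counting error 15 were higher and 2, Ggps1 and Sc5d, were lower, where 35.6% of all measured genes were higher and 32% lower. The median log2 ratio of the sterol genes was 0.22. Sqle was 1.38-fold higher in grown-out than in 48 h cells (1.29 to 1.49), Lss 1.36-fold (1.19 to 1.56) and Scap 1.27-fold (1.19 to 1.35) higher. Insig1 was 1.19-fold higher (1.11 to 1.28). Ggps1 was 1.27-fold lower (1.17 to 1.38) and Sc5d 1.14-fold lower (1.06 to 1.23). Mvk, under the minimum, was 1.57-fold higher (1.26 to 1.97).

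Fatty acid genes differed less between the 2 doxycycline libraries, with 0 of 10 past 1.5-fold and a median log2 ratio of 0.04. Beyond counting error 5 were higher and 2, Acly and Elovl6, were lower, shares not far from the 35.6% higher and 32% lower among all measured genes. Scd2 was 1.15-fold higher in grown-out cells (1.12 to 1.19) and Srebf1 1.16-fold higher (1.07 to 1.26). Scd1, Fads1 and Fads2 had intervals that included no change, with Fads2 at 2.05 RPKM in both libraries. Acly was 1.17-fold lower (1.04 to 1.31).

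**Figure D4:**
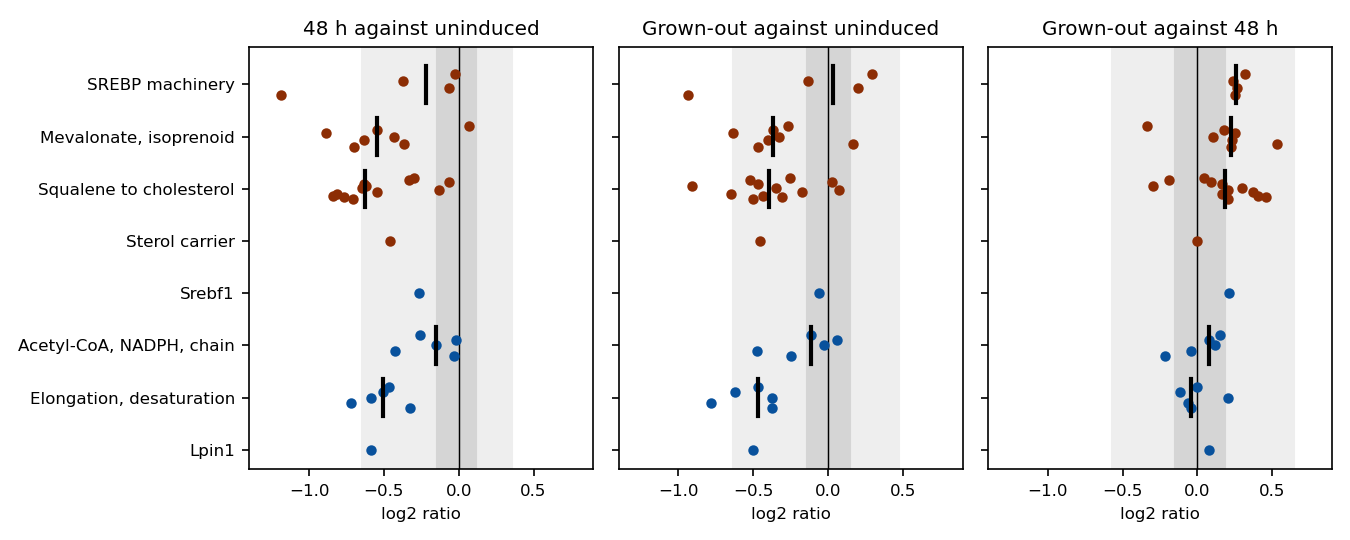
Log2 ratio (x axis) of each of the 36 genes by role (rows) in the 3 comparisons, with sterol genes in brown and fatty acid genes in blue; black bars are medians, and grey bands hold the middle 50% (dark) and middle 95% (light) of all 7915 measured genes. In the first 2 panels the medians of the mevalonate steps, of the steps from squalene to cholesterol and of elongation and desaturation lie left of the dark band, and that of acetyl-CoA, NADPH and chain-building genes near its edge or within it.

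Set side by side, the branches had medians of -0.62 and -0.30 at 48 h, -0.42 and -0.31 in grown-out cells, and 0.22 and 0.04 between the doxycycline libraries, sterol before fatty acid. Over all 36 genes, those under the minimum included, they were -0.55 and -0.38 at 48 h but -0.36 and -0.38 in grown-out cells, so the order of the branches in grown-out cells turned with the minimum. With 1 library per condition the difference between branches was not tested. Summed over its 24 genes, the sterol branch took 1104 RPM (reads scaled to the library total) in uninduced cells, 773 RPM at 48 h and 892 RPM in grown-out cells. The sum was 1.43-fold lower at 48 h (1.41 to 1.45) and 1.24-fold lower in grown-out cells (1.22 to 1.25). The fatty acid sum was 1668.5 RPM in uninduced cells, 1395 RPM at 48 h and 1480 RPM in grown-out cells, 1.20-fold (1.18 to 1.21) and 1.13-fold (1.12 to 1.14) lower. Such sums weight long and highly transcribed genes most. For the 19 enzymes of the sterol branch alone the sum was 1.47-fold lower at 48 h (1.44 to 1.49).

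The branches also differ in gene span, which was set beside the changes. No fatty acid gene spanned under 10 kb, against 7 of 24 sterol genes, and 5 of 12 fatty acid genes spanned over 50 kb, against 2 sterol genes. At 48 h the members over 50 kb had a median log2 ratio of -0.15, and those under 10 kb one of -0.55. All measured genes in the same classes had medians of 0.02 and -0.04. Spearman's rank correlation between span and the 48 h log2 ratio was 0.35 over the 36 members, 0.20 over the 24 sterol and 0.62 over the 12 fatty acid genes, and 0.07 over all 7915 measured genes. These are correlations across genes of the same libraries and are given as a description. In the class of 10 to 20 kb both branches were represented, with medians of -0.55 for 8 sterol and -0.54 for 4 fatty acid genes at 48 h. In the class of 20 to 50 kb the medians were -0.62 for 7 sterol and -0.43 for 3 fatty acid genes. The part of span in the difference between branches was not tested.

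**Figure D5:**
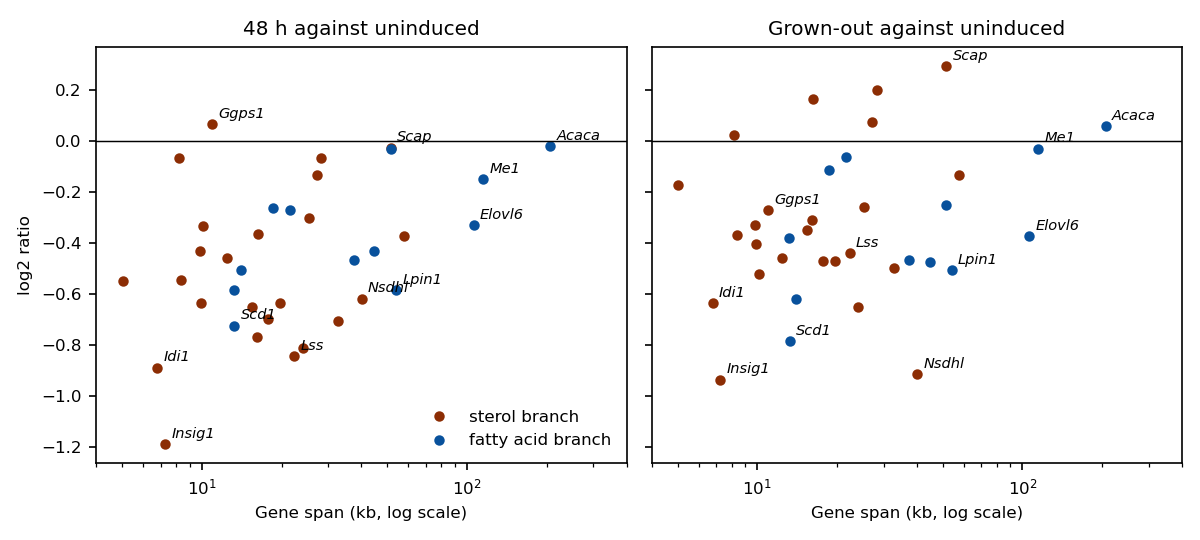
Log2 ratio (y axis) against gene span (x axis, kb on a log scale) for 24 sterol and 12 fatty acid genes, at 48 h (left) and in grown-out cells (right), each against the uninduced library. The shortest genes include Insig1 and Idi1, with log2 ratios of -1.19 and -0.89 at 48 h, and the longest is Acaca at -0.02.

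Chromosome 19 held 5 members, Scd1, Scd2, Fads1, Fads2 and Tm7sf2, and the 318 other measured genes of that chromosome had a median log2 ratio of -0.01 at 48 h and 0.05 in grown-out cells. Spearman's rank correlation between uninduced RPKM and the 48 h log2 ratio was -0.26 over the 36 members, where an uninduced level that is high by counting error alone also enters the ratio.

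Other genes of sterol and lipid handling, from lists drawn up for this pathway, were mostly within 1.5-fold of uninduced cells. Their counts stand against 3.27% lower and 0.379% higher past 1.5-fold among all measured genes at 48 h, and 2.93% and 1.07% in grown-out cells. In lists this short, 0 or 1 lower gene is near that background, whereas even 1 higher gene is a larger share than among all measured genes. Of 12 measured genes of SREBP processing and turnover, 0 were lower past 1.5-fold at 48 h and 1 was higher, with a median log2 ratio of 0.06. The one was Pgrmc1, a membrane haem-binding protein gene, with 4.26 RPKM in uninduced cells, 6.83 RPKM at 48 h and 4.45 RPKM in grown-out cells. It was 1.61-fold higher at 48 h (1.41 to 1.83). The lowest of the list at 48 h was Sec24d, a coat protein gene of vesicles that leave the endoplasmic reticulum, at a log2 ratio of -0.13. In grown-out cells the highest was Erlin1, an endoplasmic reticulum membrane protein gene, at 1.53-fold higher (1.30 to 1.80), and the lowest Sec23a, at -0.23. Mbtps1 and Mbtps2, the proteases that cut SREBPs, were 1.07-fold (1.03 to 1.10) and 1.05-fold (1.02 to 1.09) higher at 48 h.

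Of 8 partner transcription factor genes, 0 were past 1.5-fold at 48 h. Nfya, a subunit of the CCAAT-binding factor NF-Y, was the lowest, with a log2 ratio of -0.26 at 48 h and -0.16 in grown-out cells. Mlx was the highest at 48 h, at 0.08, and Usf2, an E-box factor gene, the highest in grown-out cells, at 0.36. Of 12 measured genes of sterol uptake, storage and trafficking, 2, Lrp8 and Stard10, were lower past 1.5-fold at 48 h and 0 in grown-out cells. Lrp8, a lipoprotein receptor gene, had 0.594 RPKM in uninduced cells, 0.373 RPKM at 48 h and 0.591 RPKM in grown-out cells, so the 48 h library alone was low. Stard10, a phospholipid carrier gene, was 1.53-fold lower at 48 h (1.42 to 1.66). Osbpl2 was highest at 48 h, with a log2 ratio of 0.29. Soat1, which esterifies cholesterol for storage, was 1.20-fold higher at 48 h (1.15 to 1.26) and 1.28-fold higher in grown-out cells (1.22 to 1.33), where it was the highest of the list. Stard5 was lowest in grown-out cells, at -0.34. Of 7 LXR and sterol efflux genes only Lpcat3, a phospholipid remodelling enzyme gene, was measured, with log2 ratios of -0.19 at 48 h and -0.18 in grown-out cells. Under the minimum, Abca1, a cholesterol efflux transporter gene, had 168 reads in uninduced cells, 252 at 48 h and 25 in grown-out cells. It was 1.58-fold higher at 48 h (1.29 to 1.93) and 5.48-fold lower in grown-out cells (3.59 to 8.72). Nr1h3, the gene of an LXR, was 1.52-fold lower in grown-out cells (1.05 to 2.24). Of 9 measured genes that use isoprenoids outside sterols, 0 were past 1.5-fold in either comparison with uninduced cells. Their log2 ratios at 48 h ran from -0.38 for Fnta, a subunit of protein prenyltransferases, to 0.19 for Trit1, a transfer RNA modifying enzyme gene. In grown-out cells they ran from -0.12 for Fnta to 0.30 for Pdss1, an enzyme gene of the coenzyme Q side chain.

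Among 13 measured genes of acyl-CoA, elongation and glycerolipid synthesis, 2 were lower past 1.5-fold in each comparison with uninduced cells and 0 higher, where 3.27% of all measured genes were lower at 48 h and 2.93% in grown-out cells. They were Mid1ip1 and Slc25a1 at 48 h, and Mid1ip1 and Acsl4 in grown-out cells. The median log2 ratio of the 13 genes was -0.25 at 48 h, near the -0.30 of the 10 measured fatty acid genes. In grown-out cells it was -0.14, against -0.31. Beyond counting error, 10 of the 13 were lower and 2 higher at 48 h, where 30% of all measured genes were lower and 30.1% higher. In grown-out cells 7 were lower and 4 higher, where 29.5% of all measured genes were lower and 33.6% higher. Mid1ip1, a partner of acetyl-CoA carboxylase, had 3.31 RPKM in uninduced cells, 1.72 RPKM at 48 h and 1.91 RPKM in grown-out cells. It was the lowest of that list both times, at 1.92-fold (1.59 to 2.31) and 1.73-fold (1.43 to 2.09) lower. Slc25a1, the mitochondrial citrate carrier, was 1.64-fold lower at 48 h (1.18 to 2.3), and Acsl4, an acyl-CoA synthetase gene, 1.72-fold lower in grown-out cells (1.66 to 1.77). Gpam, which starts glycerolipid synthesis, was the highest at 48 h, at 1.43-fold higher (1.15 to 1.79). Acsl5, an acyl-CoA synthetase gene, had 4.75 RPKM in uninduced cells, 4.07 RPKM at 48 h and 7.04 RPKM in grown-out cells, and was the highest in grown-out cells. Of 8 measured fatty acid oxidation genes, 1, Eci1, was lower past 1.5-fold at 48 h, with a median log2 ratio of -0.24 for the list, and 0 in grown-out cells, with a median of 0.10. Beyond counting error, 6 of the 8 were lower and 0 higher at 48 h, where 30% of all measured genes were lower and 30.1% higher. In grown-out cells 2 were lower and 5 higher, where 29.5% of all measured genes were lower and 33.6% higher. Cpt2, at 0.11, was the highest at 48 h. Cpt1a, which admits fatty acids to mitochondria, had 1.47, 0.980 and 1.75 RPKM and was the highest of the list in grown-out cells. Between grown-out and 48 h cells, Cpt1a was 1.79-fold (1.71 to 1.87), Acsl5 1.73-fold (1.68 to 1.78) and Lrp8 1.58-fold (1.47 to 1.70) higher, each the highest of its list, and Pgrmc1 was 1.54-fold lower (1.34 to 1.76). In that comparison the isoprenoid-use genes had log2 ratios from -0.27 for Pggt1b, a prenyltransferase subunit gene, to 0.48 for Rabggtb, another. The partner factors ran from -0.20 for Mlx to 0.36 for Usf2. The highest SREBP processing gene was Erlin1 at 0.21. The lowest genes of the uptake, acyl-CoA and oxidation lists were Stard5 at -0.28, Acsl4 at -0.30 and Cpt2 at -0.11, and Lpcat3 stood at 0.01.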

How the data were processed

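Bru-seq libraries of 3 conditions were used, 1 each. Per the submitters' processing notes, the tools were bedtools 2.16.2, TopHat 1.4.1, Bowtie 0.12.8 and CASAVA 1.8.2, and the build named is hg19. The models carry mouse symbols, so the build of the file coordinates, printed as deposited but counted from 1, is not given in the sources used here, nor is whether strand was used. Fdft1 and Srebf1 overlap the ends of opposite-strand genes. Deposited estimated counts, per the file headers reads of a whole gene model, were rounded for the intervals. Deposited RPKM, per the file headers scaled to model length and library total, was the main measure. The authors' reads-per-base signal column repeats the estimated counts over length and was not used further. Of 22658 models, 138 with a repeated symbol or a span over 3 Mb were left out. Nsdhl, Ebp, Scd1 and Acly lie on the same strand inside such long models and have deposited lengths of 2218, 1741, 4837 and 4427 bp, under their spans, so their levels are not comparable with those of other genes. For genes outside the members, deposited length was not set against span here. Those of Pgrmc1, Erlin1 and Gpam are 1838, 3432 and 3828 bp, so the same limit may hold for their levels.

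Log2 ratios used RPKM plus 0.05, which understates changes of low genes. Folds are plain RPKM ratios with exact conditional binomial 95% intervals, and levels have exact Poisson ones; both cover counting error only, and repeat reads of 1 molecule could make them too narrow. No p-value was computed. The interval code was tested on simulated data. Members, roles, lists and motifs were chosen with earlier results of these data known. Every member is accounted for, by role; of each other list the highest and lowest measured log2 ratio per comparison are named, except 1 that is not reported here, and of genes outside that rule Mbtps1, Mbtps2, Stard10, Slc25a1, Abca1, Nr1h3, Mylip and Mmab, chosen after their values were seen. Alternatives were other scalings, with edgeR 4.0.16 (TMM) and DESeq2 1.42.0 size factors, other pseudocounts, minima and fold thresholds. Python 3.11.15, scipy 1.17.1 and R 4.3.3 were used.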

Additional observations from a re-analysis of the deposited data

Results flagged for a closer look

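Lbr was on opposite sides of the uninduced library in the 2 doxycycline conditions, each beyond counting error. Its log2 ratio against uninduced cells was -0.13 at 48 h and 0.08 in grown-out cells. The difference between the conditions was not tested, both share the uninduced library, and both changes were under 1.5-fold.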

How the results depend on the processing

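No paired analysis was possible because each condition had 1 library. Total gene model reads, TMM and median-of-ratios scaling moved the median of all measured genes by at most 0.0220 on the log2 scale. Of the recomputed branch medians, 53 stayed within the counting interval of the members in the middle of the order, which at 48 h is wide for the sterol genes (-0.46 with a pseudocount of 0.5, against -0.62), and 1 did not: the fatty acid median between grown-out and 48 h cells, 0.1004 without Scd1 and Acly, whose deposited lengths are short; that alternative was chosen after seeing the data. Counts past a fold depended on the threshold. Shares of all measured genes were not recomputed with other scalings, pseudocounts or minima, or without Scd1 and Acly. Counts at those settings thus have no background beside them. At 2-fold, 0.72% of all measured genes were lower at 48 h and 0.708% in grown-out cells. At 48 h, the sterol count of 11 lower genes became 5 with a pseudocount of 0.5, 6 of 13 with a mean RPKM of at least 2 and 1 at 2-fold. The fatty acid count of 1 became 2 with median-of-ratios scaling or a pseudocount of 0.01, 0 at 2-fold or without Scd1 and Acly, and 8 by counting error only. In grown-out cells, the sterol count of 4 lower became 2 with a pseudocount of 0.5, 0 at 2-fold and 16 by counting error only, which also gave 3 higher. The fatty acid count of 2 lower became 1 with a pseudocount of 0.5, with a mean RPKM of at least 2 or without Scd1 and Acly, 0 at 2-fold, and 7 lower and 1 higher by counting error only. Between grown-out and 48 h cells, counting error only gave 15 higher and 2 lower sterol genes and 5 higher and 2 lower fatty acid genes, where 1.5-fold gave 0. A higher pseudocount shrinks ratios of low genes by construction; for other changes the cause was not tested. Of the recomputed ratios of single members, 510 stayed within counting error and 30 moved, all with a pseudocount of 0.5, and none of them turned its direction. Members with few reads, such as Mvd and Tm7sf2, have intervals too wide to place against 1.5-fold.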

Other observations

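Mylip encodes a ubiquitin ligase that is induced by LXR and marks lipoprotein receptors for degradation. It lay far under the expression minimum and was chosen after its values were seen. It had 63 reads in uninduced cells, 41 at 48 h and 0 in grown-out cells. By the interval for counting error in both libraries, Mylip was at least 9.13-fold lower in grown-out cells than at 48 h. Against uninduced cells, the same kind of interval put it at least 13.5-fold lower in grown-out cells. Whether the other reads of that region were also absent was not tested.

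Mmab, an enzyme gene of vitamin B12 handling, starts next to Mvk on the opposite strand. It had 0.179 RPKM in uninduced cells, 0.151 RPKM at 48 h and 0.142 RPKM in grown-out cells, where Mvk had 0.243, 0.178 and 0.279 RPKM. The Mir33 hairpin lies within Srebf2 on the same strand and yields a miRNA known to act on cholesterol efflux genes. The mature sequence from RefSeq (GRCm38.p6), with its seed of bases 2 to 8 in capitals, is shown to identify it.
mmu-miR-33-5p: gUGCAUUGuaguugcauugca
Its model of 69 bp had 0 reads in each library, and the deposited length of Srebf2, 57623 bp, is under its span of 57692 bp. How reads were shared between these overlapping models was not tested. The count of 0 is therefore not read as a level of the hairpin, and none is given beside that of Srebf2.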
